A study of Sus scrofa with 12 samples.

Results

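The genes described here encode mechanosensitive and potassium ion channels of arterial endothelial cells (ECs). They were chosen by name as 10 symbols, and 9 of them were found among the 21153 genes of the count table: PIEZO1, PIEZO2, TRPV4, TRPC1, PKD1, PKD2, KCNMA1, KCNN4 and KCNJ2. P2RX4 was matched to no row and was not analysed here. Primary porcine ECs from 3 donors (PecA, PecC and PecD in the labels) were kept for 48 h under laminar shear stress, and 12 cultures were sequenced: 3 at 2 dyne/cm2 (low aneurysmal), 6 at the physiological 30 dyne/cm2, in 2 sets of 3, and 3 at 80 dyne/cm2 (supra-high aneurysmal). Each donor, numbered here as replicate 1, 2 or 3, is present once in every group. No genetic change or drug is named, all cells grew in DMEM with fetal calf serum and heparin, and the pigs were 8 months old. On the artery the sources differ, aortic in the sample labels and coronary in the methods. According to the series text, low and supra-high shear stress were applied in different flow slides at different seeding densities, and each had its own controls at 30 dyne/cm2 in the same slide. The methods name a single slide and density. Under the series text, the control sets differ in slide, and a difference between them cannot be told apart from it. Cultures at 2 dyne/cm2 were set against set 1 and those at 80 dyne/cm2 with set 2, within each donor, and no library is shared between these comparisons.

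ECs read the drag of the blood partly through ion channels. Mechanically gated cation channels such as PIEZO1 let calcium into the cell when the membrane is put under tension, and the calcium in turn opens calcium-activated potassium channels. Potassium then leaves the cell, the membrane hyperpolarizes, and this change can spread to the smooth muscle and relax the artery. Inward rectifiers of the KCNJ2 type are also opened by flow, and the polycystins PKD1 and PKD2 form a complex in the primary cilium that has been tied to flow sensing and to polycystic kidney disease.

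Libraries held 29606854 to 41058902 counts on genes. Levels are given as CPM, counts scaled to the total of the library, and levels of different genes are not compared because exon lengths were not used. Fold changes come from a negative binomial fit over all tested genes with the donor as a term (edgeR), with standard errors (SE). A gene was tested where at least 3 of the 6 compared libraries reached 1 CPM, and it passed when it changed at least 2-fold with an adjusted p under 0.05. Of the endothelial markers, 6 of 9 could be matched (PECAM1, CDH5, KDR, TEK, TIE1 and ERG), and together they held 3996 to 5194 CPM at 2 dyne/cm2 and 5909 to 7991 CPM in the other libraries. TEK passed as lower at 2 dyne/cm2 (log2 fold change -2.95). SMTN held most of the smooth muscle sum, and LMOD1 had 27 to 203 counts per library. Of the other markers of smooth muscle, DES had 0 counts in all 12 libraries, CNN1 had 3 counts or fewer in 11, and ACTA2 had at most 17 counts. MYH11 and TAGLN were counted in every library, at 9 to 26 and 5 to 19 counts. Leukocyte markers (5 of 5 matched) summed to 10.7 to 30.7 CPM, with PTPRC at most at 2 counts and CD3E at most at 1. CD14 had 39 to 166 and CD79A 95 to 214 counts per library, and neither passed in either comparison. CD68, at 188 to 807 counts, passed as lower at 2 dyne/cm2 (-1.17). The sum of the fibroblast markers (5 of 5 matched) moved with the conditions. It was 377 to 1181 CPM at 2 dyne/cm2 and 164 to 228 CPM in set 1. In set 2 it was 127 to 510 CPM, and at 80 dyne/cm2 43.4 to 67.0 CPM. COL3A1 made up most of it and passed in both comparisons (log2 fold changes 1.97 and -1.90). PDGFRA passed at 2 dyne/cm2 (1.09). COL1A1 (1.44 and -1.34) and LUM (-0.11 and -0.57) passed in neither comparison, and DCN was not tested. Pericyte markers, of which RGS5, ABCC9 and KCNJ8 had at most 3 counts in any library, summed to 1.15 to 7.17 CPM. PDGFRB (2.41) passed at 2 dyne/cm2 and CSPG4 in both comparisons (-6.81 and 2.14). CSPG4 had a mean of 0.0198 CPM at 2 dyne/cm2, so it passed the filter of that comparison through its controls alone. The part of these other markers in the values below was not tested.

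The channel genes were picked with the levels of these libraries known. Their values at 2 and at 80 dyne/cm2 are therefore a description, with no test. Lower at 2 dyne/cm2 and higher at 80 dyne/cm2 in every donor were 4 of the 9 genes, PIEZO1, PKD1, KCNMA1 and KCNN4, against 11.2% of all genes tested in both comparisons. The opposite course, higher at 2 and lower at 80 dyne/cm2 in every donor, was seen for PKD2 alone among the 9, against 15.4% of all genes. Taking each comparison alone, 4 of the 9 were lower and 1 was higher in all donors at 2 dyne/cm2 (33.4% and 32.2% of all genes), while 5 were higher and 3 lower in all donors at 80 dyne/cm2 (20.0% and 27.1%). Groups did not overlap for 5 genes at 2 dyne/cm2 (36.5% of all genes) and for 1 at 80 dyne/cm2 (14.2%). These comparisons are the ones by which the genes were chosen, so nothing is read from the counts or from the medians that follow. The 9 genes had a median log2 fold change of -0.25 under low and 0.41 under supra-high shear stress, while all tested genes had medians of 0.00 and -0.01.

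**Figure D1:**
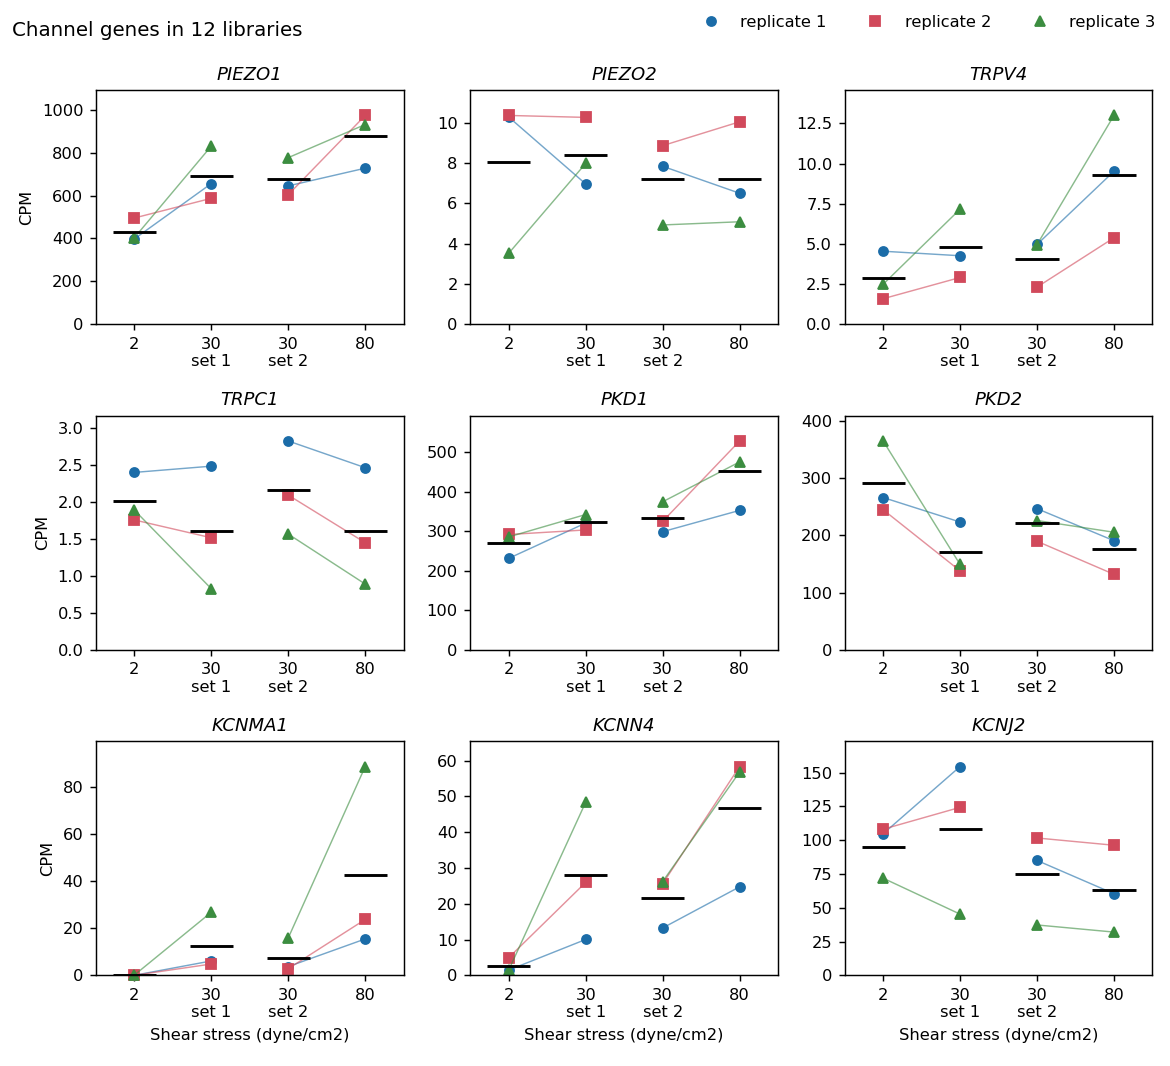
Level of each of the 9 channel genes in every library, in CPM (axis from 0), at 2, 30 (set 1 and set 2) and 80 dyne/cm2. Each symbol is 1 donor, thin lines join the cultures of a donor within a comparison, and black bars are means of 3. KCNMA1 lies at or near 0 in the 3 libraries at 2 dyne/cm2 and reaches 88.6 CPM at 80 dyne/cm2, while PIEZO2, TRPC1 and KCNJ2 are ordered more by donor than by shear stress.

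KCNMA1 (ENSSSCG00000010325, chromosome 14, 79345382 to 80106337 on Sscrofa11.1) encodes the pore of the large-conductance calcium- and voltage-activated potassium channel, BK. It had 0, 0 and 3 counts in replicates 1, 2 and 3 at 2 dyne/cm2. In set 1 it was at 6.09, 4.79 and 26.8 CPM, or 250, 158 and 908 counts. Every library at 2 dyne/cm2 thus lay under every control library. With the 0 counts of replicates 1 and 2 set to 3 counts, KCNMA1 was at least 79.5-fold lower in replicate 1 and at least 47.3-fold lower in replicate 2. In replicate 3 it was 283-fold lower, with a 95% exact binomial interval of 96.7 to 1377 that covers counting error only. The gene passed the filter of that comparison through its controls alone.

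At 80 dyne/cm2 KCNMA1 was at 15.4, 23.7 and 88.6 CPM, against 3.70, 2.81 and 15.9 CPM in set 2. The ratio was 4.16 in replicate 1, 8.43 in replicate 2 and 5.58 in replicate 3, and the fitted log2 fold change was 2.56 (SE 0.20). The ranges of the groups overlapped slightly, because replicate 3 was the highest in each condition. Its mean over 4 libraries was 32.8 CPM in replicate 3, against 6.30 and 7.82 CPM in replicates 1 and 2. The genes of the BK beta subunits, which tune how the channel responds to calcium and voltage, were close to silent in all conditions. KCNMB1 had at most 1 count in any library, KCNMB2 had 0 counts in all 12, KCNMB3 had at most 2 and KCNMB4 at most 6. A count of 0 allows up to 3 counts, or 0.0731 to 0.101 CPM in these libraries. KCNMA1 is abundant in arterial smooth muscle. The smooth muscle list (7 of 7 matched) summed to 69.8 to 84.0 CPM at 2 dyne/cm2, 61.7 to 85.2 CPM in set 1, 60.1 to 72.1 CPM in set 2 and 48.4 to 75.6 CPM at 80 dyne/cm2. DES was at 0 throughout, and ACTA2 had a mean of 0.0789 CPM at 80 dyne/cm2 and of 0.229 CPM at 2 dyne/cm2. MYH11 had means of 0.564, 0.402, 0.433 and 0.576 CPM in the order 2, set 1, set 2 and 80 dyne/cm2. In the same order TAGLN had means of 0.456, 0.334, 0.290 and 0.358 CPM. LMOD1 of that list was lowest at 2 dyne/cm2 and highest at 80 dyne/cm2, as KCNMA1 was, with means of 0.966, 1.92, 3.05 and 3.89 CPM in the order 2, set 1, set 2 and 80 dyne/cm2. The pericyte marker CSPG4 also had that pattern, with means of 0.0198, 2.94, 0.969 and 3.78 CPM. PDGFRB of the pericyte list went the other way and was highest at 2 dyne/cm2, with means of 4.22, 0.791, 1.28 and 0.872 CPM. RGS5, ABCC9 and KCNJ8 of that list had at most 3 counts in any library. The part of these cells in the KCNMA1 values was not tested.

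KCNN4 (ENSSSCG00000003069, chromosome 6, 50580016 to 50593518) encodes the intermediate-conductance calcium-activated potassium channel, one of the channels that hyperpolarize ECs. It was at 1.46, 4.93 and 1.48 CPM at 2 dyne/cm2 and at 10.0, 26.0 and 48.4 CPM in set 1, and the groups did not overlap. It was 6.88-fold, 5.27-fold and 32.7-fold lower in replicates 1, 2 and 3, with a fitted log2 fold change of -3.32 (SE 0.53). At 80 dyne/cm2 its levels were 24.7, 58.3 and 56.8 CPM, against 13.2, 25.6 and 26.2 CPM in set 2. The ratios of 1.87, 2.28 and 2.17 lay closer together than those at 2 dyne/cm2, and the fitted log2 fold change was 1.11 (SE 0.11). Because replicate 1 at 80 dyne/cm2 lay below the controls of replicates 2 and 3, the groups overlapped although each donor moved upward. For KCNN4 replicate 3 had the largest ratio at 2 dyne/cm2, and for KCNMA1 and KCNN4 alike it had the highest level in set 1.

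KCNJ2 (ENSSSCG00000039947, chromosome 12, 10351959 to 10380631) encodes the inward rectifier Kir2.1, the potassium channel that sets much of the resting potential of ECs. It was at 105, 108 and 71.9 CPM at 2 dyne/cm2 and at 155, 124 and 45.2 CPM in set 1. It was lower in replicates 1 and 2 and higher in replicate 3 at 2 dyne/cm2, and the fitted log2 fold change was -0.02 (SE 0.26). Under supra-high shear stress it was at 60.4, 96.2 and 32.0 CPM, against 85.0, 102 and 37.2 CPM in set 2. It was thus lower in each donor, by ratios of 0.710, 0.947 and 0.858, with a log2 fold change of -0.23 (SE 0.12). Replicate 3 was the lowest in every group.

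PIEZO1 (ENSSSCG00000035230, chromosome 6, 914480 to 967113) encodes a mechanically gated cation channel and is the member through which calcium is best known to enter ECs under flow. It had at least 12817 counts in every library. Its levels were 398, 495 and 403 CPM at 2 dyne/cm2 and 656, 587 and 831 CPM in set 1. No library at 2 dyne/cm2 reached a control, and the fitted log2 fold change was -0.65 (SE 0.16), or 1.57-fold lower. In the supra-high cultures its levels were 727, 973 and 931 CPM, against 645, 604 and 777 CPM in set 2, higher in each donor with a log2 fold change of 0.41 (SE 0.15). Replicate 1 at 80 dyne/cm2 lay below replicate 3 of its controls. On the genome the span of PIEZO1 overlaps that of CTU2, which had 1160 to 2523 counts per library, with fitted log2 fold changes of -0.21 (SE 0.12) and 0.27 (SE 0.11). The sources used here do not say that counting used strand, so reads of the shared stretch cannot be assigned with certainty.

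PIEZO2 (ENSSSCG00000034765, chromosome 6, 97644115 to 97945693), the touch and proprioception channel of sensory neurons, was at 10.3, 10.4 and 3.53 CPM at 2 dyne/cm2 and at 6.97, 10.3 and 7.99 CPM in set 1. The donors went different ways, with ratios of 1.48 in replicate 1 and 0.441 in replicate 3. At 80 dyne/cm2 it was at 6.51, 10.1 and 5.09 CPM and in set 2 at 7.84, 8.87 and 4.93 CPM. The fitted log2 fold changes were -0.16 (SE 0.33) and 0.02 (SE 0.16), each smaller than its error. MDFIC, whose protein is known as a partner of PIEZO channels, was measured at a mean of 37.5 to 46.0 CPM in the 4 groups. It did not pass in either comparison, with log2 fold changes of -0.19 (SE 0.13, adjusted p = 0.323) and -0.12 (SE 0.09, adjusted p = 0.424, edgeR quasi-likelihood test). Its relative MDFIC2 was not analysed here.

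TRPV4 (ENSSSCG00000009929, chromosome 14, 41125819 to 41169582) encodes a calcium-permeable channel opened by warmth, cell swelling and lipid messengers, which in ECs feeds the calcium-activated potassium channels. It was at 4.54, 1.59 and 2.49 CPM at 2 dyne/cm2 and at 4.26, 2.91 and 7.16 CPM in set 1. The groups overlapped, replicate 1 was slightly higher and the other replicates were lower, and the log2 fold change was -0.73 (SE 0.34). Under supra-high shear stress it was at 9.52 and 5.38 CPM in replicates 1 and 2 and 12.997 CPM in replicate 3, against 4.96, 2.31 and 4.96 CPM in set 2. All libraries at 80 dyne/cm2 lay above all of set 2, the only such case among the 9 genes. The ratios were 1.92, 2.33 and 2.62 in replicates 1, 2 and 3, and the log2 fold change was 1.21 (SE 0.16). Counts of TRPV4 ran from 47 to 424 per library.

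TRPC1 (ENSSSCG00000011681, chromosome 13, 83436343 to 83498419), a canonical TRP channel subunit linked to calcium entry after store release, had 28 to 103 counts per library. It was at 2.40, 1.76 and 1.89 CPM at 2 dyne/cm2 and at 2.48, 1.52 and 0.825 CPM in set 1. In the supra-high cultures it was at 2.46, 1.45 and 0.889 CPM, against 2.83, 2.09 and 1.57 CPM in set 2. It was lower in each donor at 80 dyne/cm2 (log2 fold change -0.45, SE 0.21) and without a common direction at 2 dyne/cm2 (0.42, SE 0.31). In all 4 groups replicate 1 was the highest.

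PKD1 (ENSSSCG00000008041, chromosome 3, 39849579 to 39899455) encodes polycystin-1, the large receptor-like partner in the polycystin complex. Its levels were 231, 292 and 286 CPM at 2 dyne/cm2 and 321, 303 and 342 CPM in set 1. The groups did not overlap, although the step was small, a log2 fold change of -0.25 (SE 0.11). At 80 dyne/cm2 it was at 353, 528 and 475 CPM, against 299, 325 and 374 CPM in set 2, with ratios of 1.18, 1.63 and 1.27 and a log2 fold change of 0.46 (SE 0.13). The span of PKD1 overlaps that of TSC2, which had 3249 to 5464 counts and a fitted change (log2) of 0.32 (SE 0.08) and 0.24 (SE 0.09).

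PKD2 (ENSSSCG00000009217, chromosome 8, 131002973 to 131058932) encodes polycystin-2, the channel-forming partner. It ran the other way. At 2 dyne/cm2 it was at 266, 245 and 365 CPM, all above the 224, 138 and 149 CPM of set 1, with ratios of 1.19, 1.78 and 2.45. The fitted log2 fold change was 0.81 (SE 0.22). Under supra-high shear stress it was at 191, 132 and 206 CPM, against 247, 189.9 and 226 CPM in set 2, lower in each donor with a log2 fold change of -0.31 (SE 0.10).

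The number of PKD2 counts per PKD1 count, taken within a library, combines both courses and needs no normalization between libraries. It was 1.15, 0.841 and 1.28 in replicates 1, 2 and 3 at 2 dyne/cm2 and 0.697, 0.456 and 0.436 in set 1. In the supra-high cultures it was 0.541, 0.250 and 0.433, against 0.827, 0.585 and 0.604 in set 2. Its mean was 1.09 ± 0.226 (SD, n = 3) at 2 dyne/cm2, 0.530 ± 0.145 in set 1, 0.672 ± 0.134 in set 2 and 0.408 ± 0.147 at 80 dyne/cm2. All libraries at 2 dyne/cm2 had a higher ratio than all others, while those at 80 dyne/cm2 overlapped with set 1 but lay under all of set 2. Gene length does not enter the comparison between groups, since it is the same in each.

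**Figure D2:**
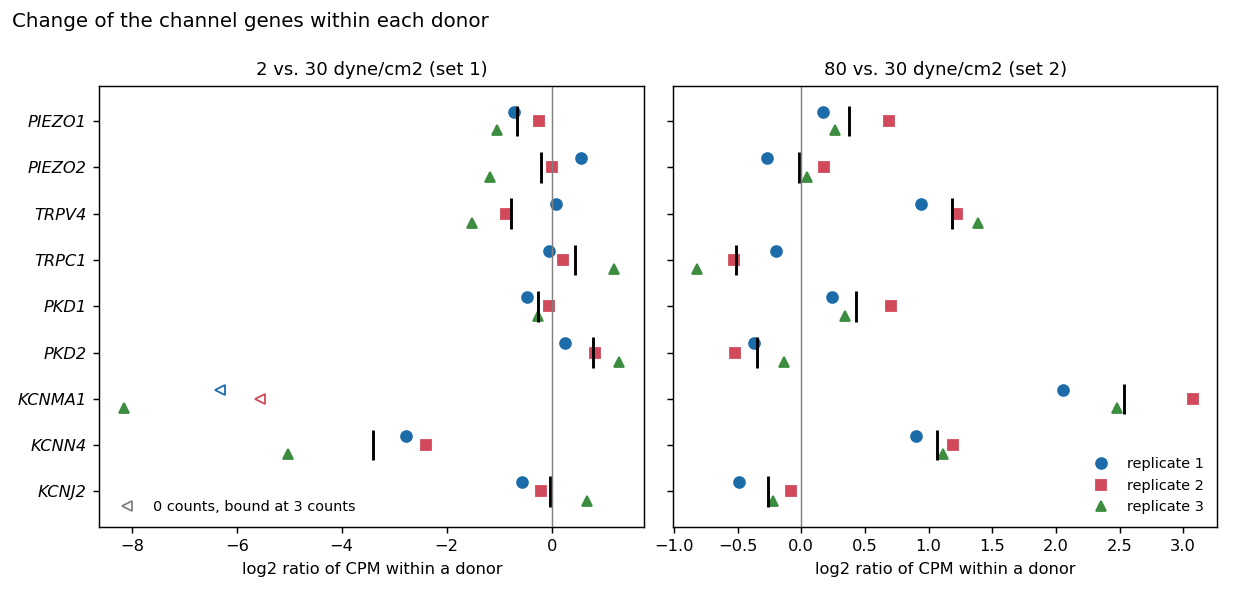
Log2 ratio of CPM at 2 vs. 30 dyne/cm2 (left) and at 80 vs. 30 dyne/cm2 (right) for the 9 channel genes, within each of 3 donors. Symbols are donors, black bars are means over them (none for KCNMA1 in the left panel), and open triangles are KCNMA1 values with 0 counts at 2 dyne/cm2, set to 3 counts, so that the true value lies further left. The horizontal scales differ between the panels. KCNMA1 and KCNN4 lie left of 0 in the left panel and right of 0 in the right panel in each donor, and PKD2 does the reverse.

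In the order of the group means, KCNMA1, KCNN4, PIEZO1 and TRPV4 shared 1 sequence, with 2 dyne/cm2 lowest, then set 2, set 1 and 80 dyne/cm2. For KCNMA1, KCNN4 and PIEZO1 the lowest step lay outside the ranges of the groups, and for TRPV4 it did not. The control sets overlapped for all 9 genes (10.1% of all genes did not overlap), and set 1 overlapped with 80 dyne/cm2 for these 4. PKD1 differed in having set 1 under set 2. PKD2 was lowest in set 1, followed by 80 dyne/cm2, set 2 and 2 dyne/cm2, and each of these neighbours overlapped.

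How far the levels went with the group or with the donor differed among the genes. Set 1 and set 2 count as separate groups at the same shear stress. The share of the groups therefore also holds the difference between the sets and is not that of shear stress alone. Of the variance of log2(CPM + 0.5) over 12 libraries, the 4 groups accounted for 85.1% in KCNMA1, 83.2% in KCNN4, 81.5% in PIEZO1 and 72.1% in PKD1. In PKD2 and TRPV4 the groups took 60.8% and 57.1%, and the donor took 23.2% and 33.8%. In KCNJ2, TRPC1 and PIEZO2 the donor took the larger part, 67.8%, 66.7% and 64.7%, and the groups took 20.7%, 19.3% and 4.67%. KCNJ2, the best covered of these, had a mean of 46.6 CPM in replicate 3 and of 101 and 108 CPM in replicates 1 and 2.

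**Figure D3:**
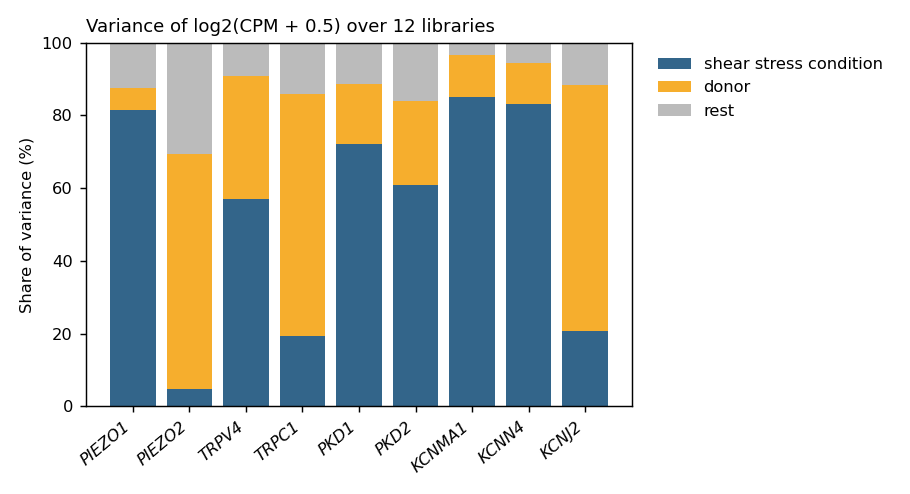
Share of the variance of log2(CPM + 0.5) over 12 libraries, in percent, that goes with the 4 shear stress groups, with the 3 donors and with neither, for each channel gene. The groups take over 80% in KCNMA1, KCNN4 and PIEZO1, and the donor takes over 60% in PIEZO2, TRPC1 and KCNJ2.

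The cultures of both control sets also entered the choice of the genes, so the difference between the sets is given without a test for them. Over the whole table, 1 of 11163 genes (0.00896%) passed both thresholds between the sets, and 2146 had an unadjusted p under 0.05 (edgeR quasi-likelihood test). In DESeq2 66 genes passed, and without a filter on low counts 46 did. KCNMA1 was lower in set 2 in each donor, 1.64-fold, 1.70-fold and 1.69-fold, with a log2 fold change of -0.77 (SE 0.10). KCNJ2 was also lower in each donor (log2 fold change -0.50, SE 0.12), and PKD2 was higher in each (0.38, SE 0.09). The choice of the set moved some values at 80 dyne/cm2. Against set 1 the log2 fold change of KCNMA1 was 1.79 in place of 2.56, that of KCNJ2 was -0.73 in place of -0.23, and those of PKD2, TRPC1 and PIEZO2 changed sign (0.06, 0.01 and -0.25). KCNN4 and TRPV4, over 2-fold higher at 80 dyne/cm2 against set 2, were under 2-fold against set 1 (log2 fold changes 0.90 and 0.98), and KCNN4 also against both sets together (0.99). At 2 dyne/cm2 the values against set 2 were -0.61 for PIEZO1, -3.14 for KCNN4 and 0.42 for PKD2. Those of TRPC1, PIEZO2 and KCNJ2 changed sign (-0.05, 0.09 and 0.47 in place of 0.42, -0.16 and -0.02).

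The rest of the channel machinery was read from 9 lists of 190 other genes, of which 166 were matched and 20 of these had 0 counts in all libraries. The lists were chosen with earlier results of these data known. The shares beside those of all genes are therefore a description, and no excess is read from them. At 2 vs. 30 dyne/cm2 58 of them could be tested, and 3 rose and 11 fell, together 24.1% of those tested against 9.60% of all genes. Of those that fell, KCNK7, NT5E and ATP2B2 had passed the filter through their controls alone. Their median log2 fold change was -0.19, against 0.00 over all genes. At 80 vs. 30 dyne/cm2 57 could be tested, 3 rose and 0 fell, or 5.26% against 2.20% of all genes, with a median of 0.06. By direction, 5.06% of all genes were called higher and 4.54% lower at 2 dyne/cm2, and 1.14% higher and 1.05% lower at 80 dyne/cm2. In the fit without a donor term the counts were 9 and 0, and 8 of the 57 genes then had an unadjusted p under 0.05 at 80 dyne/cm2. Against the other control set, 12 passed at 2 dyne/cm2 and 0 at 80 dyne/cm2, where 16 of 56 genes had an unadjusted p under 0.05. Whether the responses to low and supra-high shear stress differed was tested with an interaction term, and 32 of 63 genes passed an adjusted p of 0.05 (50.8%, against 37.1% of all genes tested).

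Among the other potassium channel genes, 2 calcium-activated, 3 tandem-pore, 4 voltage-gated and 3 auxiliary genes could be tested. Of 12 other inward rectifiers with a row 0 could be tested, and KCNJ8, the pore of vascular KATP channels, had at most 1 count per library. KCNN3, the small-conductance calcium-activated channel of ECs, was at 0.817, 3.78 and 2.36 CPM at 2 dyne/cm2 and at 9.62, 8.85 and 13.1 CPM in set 1. It fell by 2.33 on the log2 scale (SE 0.45, adjusted p = 0.0238, edgeR quasi-likelihood test) in 3 of 3 donors. In the cultures at 80 dyne/cm2 it was at 9.74, 25.1 and 21.9 CPM, against 8.48, 19.1 and 12.9 CPM in set 2, and it did not pass (0.49, SE 0.14, adjusted p = 0.0772). The difference between its responses passed (adjusted p = 0.00154). Without replicate 3 its call at 2 dyne/cm2 was lost at a log2 fold change of -2.27. KCNN2, of the same family, was highest in replicate 2 of every group. It rose at 80 dyne/cm2 (log2 fold change 1.33, SE 0.33, adjusted p = 0.0493), from 0.631, 4.12 and 1.46 CPM to 1.72, 15.6 and 1.69 CPM. Its call was lost under 6 alternatives: without replicate 2 (log2 fold change 0.75), against set 1 (1.06) or both sets (1.13), and, at a change of 1.29 to 1.70, with the dispersion from 12 libraries, RLE normalization or no donor term. KCNK7, a tandem-pore channel with at most 74 counts, was the other potassium channel gene past both thresholds at 2 dyne/cm2. It fell by 1.15 on the log2 scale (SE 0.26, adjusted p = 0.0344), and is named after its values were seen. At 2 dyne/cm2 it was at 0.613, 0.574 and 0.724 CPM, so it passed the filter through its controls alone. The call was lost without a donor term (-1.15), in DESeq2 (-1.14) and against set 2 (-0.99), and the gene did not pass at 80 dyne/cm2.

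Among other mechanosensitive channels and their partners, 16 were tested in each comparison. TMC7, of a family that includes the channels of hair cells, was at 4.01, 7.26 and 2.80 CPM at 2 dyne/cm2 and at 17.6, 24.7 and 17.9 CPM in set 1. It fell by 2.16 on the log2 scale (SE 0.19, adjusted p = 0.00543). ASIC2, an acid-sensing cation channel, was the only one that rose (1.25, SE 0.31, adjusted p = 0.0424), and replicate 1 had 0 or 1 counts of it in each group, so that the value rests on replicates 2 and 3. Its call was lost against set 2 (0.95) and, at a change about as large, without a donor term (1.36), in DESeq2 (1.27), without a filter (1.24) and without replicate 1 (1.23). None of the 16 passed both thresholds at 80 dyne/cm2 in edgeR's quasi-likelihood test, against 2.20% of all genes. Of 8 other TRP and polycystin genes tested, 0 passed both thresholds in either comparison, against 9.60% and 2.20% of all genes. TRPA1 had an adjusted p of 0.0105 at 80 dyne/cm2 with a log2 fold change of 0.67 (SE 0.10), under the 2-fold threshold, and was named after its values were seen.

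Of the genes of ATP signalling, 5 of 6 tested passed at 2 dyne/cm2, or 83.3% against 9.60% of all genes. The list was chosen with earlier results known, so no excess is read from this share. ATP released under flow acts on purinergic receptors and is degraded at the cell surface by ectonucleotidases. ENTPD1 (CD39), which splits ATP and ADP to AMP, was at 1.28, 0.980 and 0.126 CPM at 2 dyne/cm2 and at 10.4, 4.39 and 7.69 CPM in set 1. It fell by 3.30 on the log2 scale (SE 0.60, adjusted p = 0.0207) in 3 of 3 donors. NT5E (CD73), which makes adenosine from AMP, fell from 1.66, 2.21 and 4.36 CPM to 0.996, 0.980 and 0.944 CPM (log2 fold change -1.36, SE 0.33, adjusted p = 0.0395). NT5E passed the filter of that comparison through its controls alone. It rose at 80 dyne/cm2 (1.08, SE 0.22, adjusted p = 0.0293) and passed in neither comparison against the other set (-0.72 and 0.41) or without a donor term (-1.48 and 1.14). The call at 80 dyne/cm2 was also lost against both sets (0.72), with the dispersion from 12 libraries (1.10), and without replicate 2 (0.88) or 3 (1.04). ENTPD3, another ectonucleotidase, went the opposite way. It was at 437, 417 and 448 CPM at 2 dyne/cm2 and at 179, 164 and 118 CPM in set 1, and rose by 1.53 on the log2 scale (SE 0.17, adjusted p = 0.00758). The remaining ones, chosen after their values were seen, were the ATP receptors P2RY2 and P2RX5, which fell at 2 dyne/cm2. P2RY2 was at 13.8, 17.1 and 10.4 CPM against 48.3, 29.6 and 59.6 CPM in set 1 (log2 fold change -1.69, SE 0.32, adjusted p = 0.0235). Under supra-high shear stress P2RY2 reached 74.2, 51.0 and 64.4 CPM, each above all of set 2, with a log2 fold change of 0.72 (SE 0.09, adjusted p = 0.00693), under the 2-fold threshold.

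Calcium release, entry and extrusion genes were tested in 16 cases at 2 dyne/cm2, of which 4 fell and 1 rose. Together these were 31.25% of those tested, against 9.60% of all genes. ITPR3, an inositol trisphosphate receptor that releases calcium from stores, was at 44.7, 37.1 and 29.2 CPM at 2 dyne/cm2 and at 217, 160 and 387 CPM in set 1. It fell by 2.68 on the log2 scale (SE 0.34, adjusted p = 0.00946). In the supra-high cultures it rose to 409, 316 and 392 CPM from 168, 136 and 224 CPM (1.14, SE 0.11, adjusted p = 0.00385). The call at 80 dyne/cm2 was lost without a donor term (1.11), against set 1 (0.65) and against both sets (0.89). The plasma membrane calcium pump ATP2B4 was at 4.54, 27.4 and 38.4 CPM at 2 dyne/cm2 and at 61.9, 129 and 383 CPM in set 1, and fell by 3.07 (SE 0.31, adjusted p = 0.00670), a call lost without a donor term (-3.01). Its relative ATP2B2 fell by 2.40 (SE 0.28, adjusted p = 0.00826), from 2.80, 2.45 and 1.95 CPM to 0.383, 0.642 and 0.346 CPM. ATP2B2 passed the filter of that comparison through its controls alone. Another pump gene, ATP2B1, had a log2 fold change of 0.53 (SE 0.09, adjusted p = 0.0183). The store-operated channel subunit ORAI1 fell by 1.51 (SE 0.16, adjusted p = 0.00741), and its relative ORAI2 had a log2 fold change of 0.59 (SE 0.14, adjusted p = 0.0362). The calcium pump of the endoplasmic reticulum ATP2A3 rose at 2 dyne/cm2 (1.18, SE 0.25, adjusted p = 0.0284), a call that was lost without a donor term (0.96), against set 2 (0.53) or both sets (0.83), and without replicate 2 (1.21) or 3 (0.87). ORAI1, ORAI2 and ATP2B1 are named here after their values were seen.

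**Figure D4:**
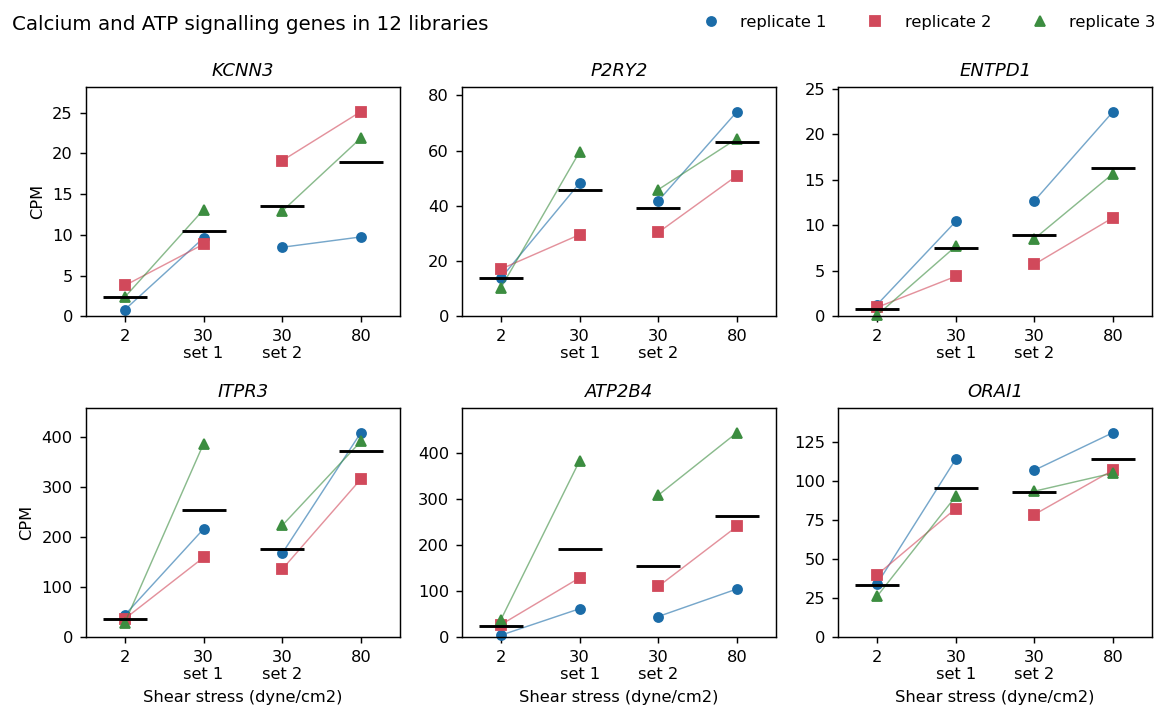
Levels of 6 calcium and ATP signalling genes in every library, in CPM (axis from 0), laid out as for the channel genes: symbols are donors, black bars are means of 3. All 6 are lower at 2 dyne/cm2 than in set 1 in each donor, and at 80 dyne/cm2 each donor lies above its culture in set 2. The genes were picked for display after their values were seen.

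**Figure D5:**
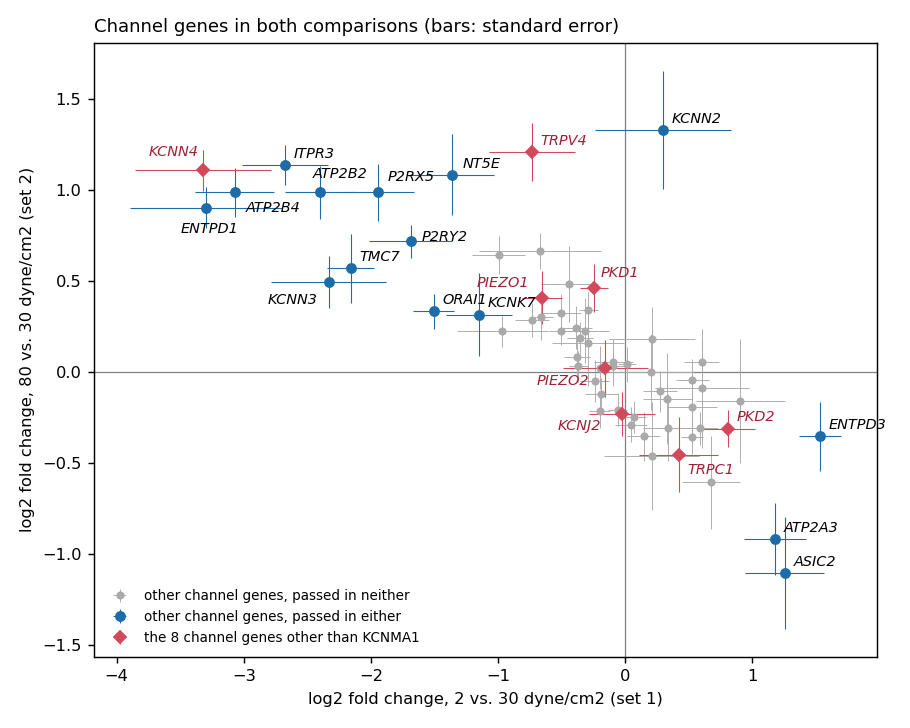
Fitted log2 fold change at 2 vs. 30 dyne/cm2 (horizontal) and at 80 vs. 30 dyne/cm2 (vertical) with standard errors, for the other channel genes tested in both comparisons (circles, blue where past both thresholds in either) and for 8 of the 9 channel genes (red diamonds, shown without a test). KCNMA1 is left out because its fold change at 2 dyne/cm2 rests on 0 to 3 counts. Genes past the thresholds lie in the upper left or the lower right, apart from KCNN2.

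For each of the 9 genes, the 3 named genes with the most similar course over the 12 libraries were taken by Pearson's r of log2(CPM + 0.5) after the mean of each donor was removed, among genes with a mean of at least 5 CPM. The 12 libraries share 3 donors and 4 groups, so r is a description only. KCNMA1 was most like AVPI1, P2RX5 and RTN4 (r = 0.992, 0.990 and 0.988). P2RX5 had means of 15.8 CPM at 2 dyne/cm2, 64.3 and 47.2 CPM in sets 1 and 2, and 92.7 CPM at 80 dyne/cm2, against 0.0315, 12.5, 7.46 and 42.6 CPM for KCNMA1. KCNN4 was most like LYPD5, ECM1 and S100A4 (r = 0.993, 0.993 and 0.992). PIEZO1 was most like SUN1, EHBP1L1 and USP31 (r = 0.990, 0.988 and 0.988), of which SUN1 encodes a protein that couples the nucleus to the cytoskeleton. PKD1 was most like ARHGAP23, KANK1 and ERC1 (r = 0.975, 0.972 and 0.957). TRPV4 was most like CAPN2, MYO18A and APBA3 (r = 0.955, 0.954 and 0.954).

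PKD2 was most like ZZZ3, ACE and PRKRA (r = 0.965, 0.963 and 0.959). ACE, the angiotensin-converting enzyme, had means of 39.2 CPM at 2 dyne/cm2, 9.75 and 21.1 CPM in sets 1 and 2, and 9.27 CPM at 80 dyne/cm2, so that it shared with PKD2 a higher mean in set 2 than in set 1. KCNJ2 was most like KCTD5, EGR1 and RABGEF1 (r = 0.928, 0.908 and 0.906). EGR1, an immediate early transcription factor, had its highest mean in set 1 (14.1 CPM), as did KCNJ2 (108 CPM). The values for TRPC1 (ZNF3, EMP2 and FBXO25, r = 0.879, 0.867 and 0.858) and PIEZO2 (TNN, MAP3K9 and FAM91A1, r = 0.900, 0.843 and 0.789) were lower.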

How the data were processed

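RNA of 12 cultures was sequenced (single-end, 100 nt). Per the labels and the methods, the authors used STAR 2.4 on Sscrofa11.1, without ambiguous reads, and featureCounts 1.4.6 on the merged coding-isoform exons of each gene. The deposited values are raw counts per gene, not normalized. Symbols came from a table of gene identifiers (14572 of 21153 matched), and positions are those of RefSeq on the same assembly. No sequences of these genes were used here.

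Counts were fitted in R 4.3.3 with edgeR 4.0.16 (TMM, quasi-likelihood test, Benjamini-Hochberg adjustment), with the donor as a term because the methods compare cultures of the same donor. The replicate numbers paired the libraries: after removal of group means, same-number libraries correlated at 0.672 to 0.876 (18 pairs, 11568 genes) and the others at -0.55 to -0.192 (36 pairs). Removal of group means pulls the others below 0 when the same-number pairs lie above it, so nothing is read from their sign. Which control set belongs to which comparison is not given in the sample labels. Replicates are the 3 donors, and SD describes their spread. CPM used library totals. The standard error is the size of the log2 fold change divided by the square root of F of the fit. It is not a direct measure of the spread of the 3 donors.

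The channel genes, the lists and the rule for naming genes were chosen with earlier results of these data known. Of the lists, the rule names the 6 largest changes past the thresholds in each comparison and direction, plus KCNMB1 to KCNMB4, MDFIC, MDFIC2 and KCNN3. Alternatives were no donor term, relative log expression, DESeq2 1.42.0, other filters, the other or both control sets, the adjusted p alone, dispersion from 12 libraries, another prior count, and each donor left out. With the donor term, leaving out 1 library leaves its partner without information, so whole donors were left out. The test of the channel genes between the control sets is not reported, since those libraries entered their choice. The scripts were tested on simulated data.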

Additional observations from a re-analysis of the deposited data

How the results depend on the processing

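Over all genes tested, 1078 passed at 2 vs. 30 dyne/cm2, 246 at 80 vs. 30 dyne/cm2 and 1 between the control sets. Without a donor term (no replicate block) these counts were 635, 0 and 0, with 929 and 473 genes at an unadjusted p under 0.05 in the latter comparisons (edgeR quasi-likelihood test), and the counts of other channel genes were 9 in place of 14, 0 in place of 3, and 19 in place of 32 for the difference between responses. On the adjusted p alone, 2895 and 940 genes passed, and 24 and 11 other channel genes. At 80 dyne/cm2, the other control set gave 24 genes and 0 other channel genes, both sets gave 84 genes, and the dispersion from 12 libraries gave 125 genes and 1 other channel gene. Without a filter 5 other channel genes passed there and 46 genes between the control sets, where DESeq2 gave 66. When each donor was left out, the counts ran from 721 to 1001 at 2 dyne/cm2, 132 to 286 at 80 dyne/cm2 and 0 to 62 between the control sets. Those of other channel genes ran from 8 to 10, from 1 to 6 and, for the difference between responses, from 21 to 26. Fewer of these genes passed the filter then, and a gene that was not tested could not pass. At 2 dyne/cm2, 51, 49 and 52 were tested without replicates 1, 2 and 3, in place of 58. The lowest counts came without replicate 3 at 2 dyne/cm2 (721 and 8) and for the difference (21), and without replicate 2 at 80 dyne/cm2 (132 and 1), with 136 genes without replicate 3 and 6 other channel genes without replicate 1. Between the control sets, 62 genes passed without replicate 2, 4 without replicate 3 and 0 without replicate 1, where 999 had an unadjusted p under 0.05.

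Of the channel genes, log2 fold changes at 80 dyne/cm2 reversed against set 1 for PIEZO2 (-0.25), PKD2 (0.064) and TRPC1 (0.0057). At 2 dyne/cm2 KCNMA1 had a fitted log2 fold change of -8.52, or -7.04 with a prior count of 2, and it passed the filter in no fit that left out a donor. KCNN4 lay between -3.88 and -2.57, PIEZO1 between -0.84 and -0.49, and PKD2 between 0.42 and 1.08 under all settings tried. At 80 dyne/cm2 KCNMA1 lay between 1.79 and 2.79, KCNN4 between 0.90 and 1.23, and TRPV4 between 0.98 and 1.39. PIEZO2, TRPC1 and KCNJ2 changed sign at 2 dyne/cm2 under some settings. The cause of these shifts was not tested. With 0 counts in replicates 1 and 2, KCNMA1 at 2 dyne/cm2 gives only bounds there.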
